A study of Mus musculus with 288 samples.

Results

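The lung of mice kept in normoxia was compared between the hours around subjective dusk and the hours around subjective dawn. The mice were male wild-type C57BL/6J animals of 8 weeks that breathed room air for 7 days and then stayed in constant normoxic darkness. Lungs were taken on the 2nd day of darkness every 3 h, with 1 mouse per library and n = 3 at each of 8 time points. The dusk window holds the 6 libraries of 10:30 and 13:30, and the dawn window holds the 6 libraries of 22:30 and 1:30, with times given as circadian time in hours, counted from subjective dawn. The other 12 libraries of the normoxic lung entered no test. RNA was read from whole lung by poly(A) sequencing, so fewer cells of a type and less RNA per cell cannot be told apart. Values are TPM, a level of transcripts corrected for transcript length and library size, and 11226 of the 35904 genes listed had a mean of at least 5 TPM over the 12 libraries and were tested. Of the genes at that limit, one lay just inside with a mean of 5.007 TPM (Klhdc7a) and one just outside with 4.999 TPM (B3galnt1). For comparison the same windows were taken in the lung of mice given intermittent hypoxia (IH, oxygen cycling between 21% and 8% in the light phase for the same 7 days, then the same normoxic darkness) and in the normoxic liver and kidney. All groups are wild-type, with no transgene or drug.

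Nearly every mammalian cell holds a circadian clock. The activators ARNTL (BMAL1), CLOCK and NPAS2 bind E-box DNA and switch on the genes of the PER and CRY proteins, which return to the nucleus and shut the activators off. A 2nd loop runs through NR1D1 and NR1D2, which repress Arntl, and through the ROR factors, which activate it. Clock output passes on through PAR bZIP factors such as DBP, TEF and HLF, while adrenal glucocorticoid, which in nocturnal rodents rises toward dusk, gives tissues a daily hormonal signal. In the lung, clock-driven rhythms are known for the handling of inhaled particles and microbes, for airway secretion and for the traffic of blood leukocytes.

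The libraries carried the markers of whole lung. The surfactant gene Sftpc ranged from 28353 to 40467 TPM, the club-cell gene Scgb1a1 from 110015 to 229994 TPM and the alveolar type 1 gene Ager from 1084 to 2425 TPM over the 12 libraries. The endothelial genes Cldn5 and Pecam1 reached 677 and 403 TPM. The dawn library of 1:30 replicate 2 stood apart. It had 25400 genes with a value above 0, against 21746 to 23480 in the other 11, and a median correlation of 0.9458 with the others, against 0.9768 to 0.9859. It had the lowest value of the 6 dawn libraries in 78 of the 87 genes called higher at dusk and in 31 of the 39 called higher at dawn. The counts over all called genes, and the list counts that it changes, are therefore also given without it, a choice made after the data were seen. In a principal component analysis the 1st component held 52.2% of the variance and put this library at 57.84, apart from both windows. Another dawn library, 22:30 replicate 3, came next at 27.34, followed by 10:30 replicate 3 at 8.085. The correlation of 0.9768 was that of 22:30 replicate 3, which stayed in the fits without 1:30 replicate 2. The 2nd component held 14.4% and placed the 6 dusk libraries between 4.451 and 14.04 and the 6 dawn libraries between -20.96 and -3.072, with no overlap.

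At an adjusted p of 0.05 or less (limma with Benjamini-Hochberg adjustment) and a difference of at least 1.5-fold, 126 genes were called, 1.12% of those tested. Of these, 87 were higher at dusk (0.775%) and 39 higher at dawn (0.347%). An unadjusted p under 0.05 was reached by 1963 genes. Folds went up to 6.18 at dusk and 7.26 at dawn, and 20 dusk genes and 7 dawn genes differed by 2-fold or more. All folds and differences are on a log2(scaled TPM + 0.5) scale, which understates changes of low genes. In TPM as deposited, without scaling, the 6 libraries of one window all lay above the 6 of the other in 320 genes (2.85%). Among them were 56 of the called dusk genes and 15 of the called dawn genes. Without 1:30 replicate 2, 151 genes were called (1.35%), of which 75 were higher at dusk (0.668%) and 76 higher at dawn (0.677%). Of these, 104 were shared with the full set, 22 calls were lost, 21 of them dusk genes, and 47 were gained, 38 of them dawn genes. The share of dusk genes among the calls was thus 69% with all libraries and 49.7% without that library. It was 46.7% after scaling to the 75th percentile of each library (63 dusk, 72 dawn), 46.8% when genes detected entered the model as a term (66 dusk, 75 dawn), and 66.7% with TPM as deposited (50 dusk, 25 dawn). The excess of dusk over dawn genes was thus present in some of these settings and not in others.

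**Figure D1:**
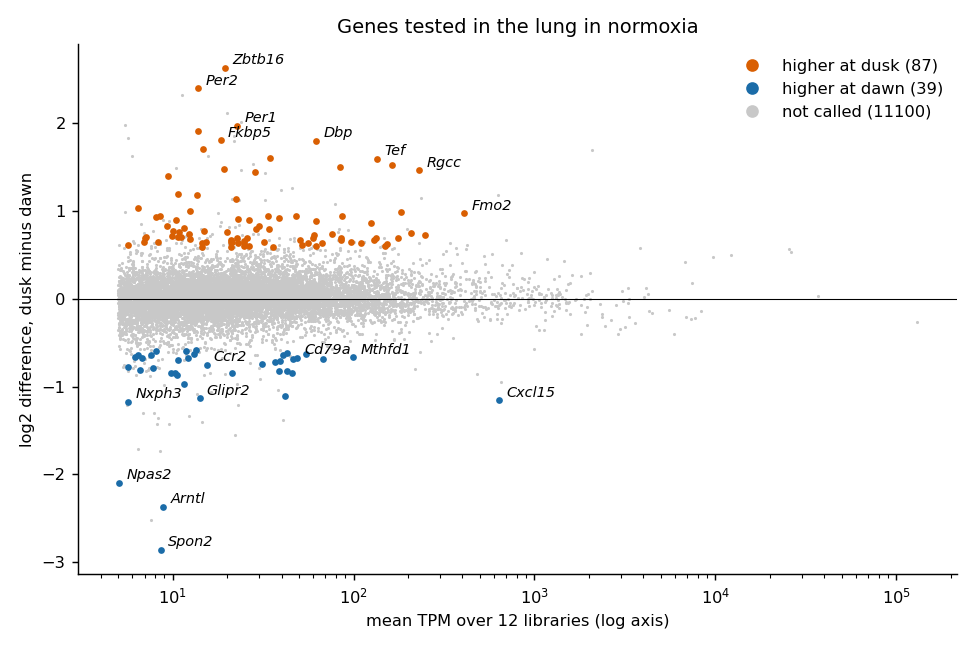
Dusk minus dawn in the normoxic lung for the 11226 genes tested: mean TPM (log axis) against the log2 difference. Coloured points are the 87 genes called higher at dusk and the 39 called higher at dawn, grey points are not called, and the labelled genes reach a log2 difference of 2.63 for Zbtb16 and -2.86 for Spon2.

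The activators of the clock were low at dusk. Arntl, a partner of CLOCK and NPAS2 in activator complexes, lay between 1.26 and 4.38 TPM at dusk (median 2.35) and between 8.36 and 19 TPM at dawn (median 16.8). The windows did not overlap, and the log2 difference was -2.37 ± 0.21 (SE, n = 6 per window, limma adjusted p = 6.36e-05). Npas2, which can take the place of CLOCK, ranged from 0.714 to 2.93 TPM at dusk (median 1.47) and from 5.5 to 10.7 TPM at dawn (median 8.79), a log2 difference of -2.10 ± 0.25 (limma adjusted p = 0.000787) without overlap. Clock itself ranged from 7.57 to 16.1 TPM at dusk and from 8.98 to 19.8 TPM at dawn. Its log2 difference of -0.38 ± 0.16 was not called (limma adjusted p = 0.232). Arntl2 was below the minimum level. Of the 3 activators tested, 2 were called, with or without 1:30 replicate 2, beside 0.347% of all genes for that direction.

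The Period genes showed the opposite pattern. Per2 lay between 20.3 and 25.6 TPM at dusk (median 24.2) and between 3.16 and 5.77 TPM at dawn (median 4.03), a log2 difference of 2.40 ± 0.13 (limma adjusted p = 3.96e-07). Per1 ranged from 19.4 to 58.7 TPM at dusk (median 33.8) and from 4.2 to 14.8 TPM at dawn (median 8.03), a log2 difference of 1.97 ± 0.33 (limma adjusted p = 0.00652). Per3 ranged from 15.5 to 29.9 TPM at dusk (median 22.8) and from 4.95 to 8.25 TPM at dawn (median 6.35), a log2 difference of 1.70 ± 0.19 (limma adjusted p = 0.000435). All 3 separated the windows without overlap, and the dusk libraries of Per1 spread more than those of Per2. The 10:30 libraries of Per1 averaged 52.9 scaled TPM and those of 13:30 averaged 20.5, while Per2 had 22.4 and 24.8.

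The cryptochromes moved less than the Period genes. Cry2 lay between 26.2 and 37.9 TPM at dusk (median 29.5) and between 14.5 and 22.6 TPM at dawn (median 19.6), a called log2 difference of 0.66 ± 0.091 (limma adjusted p = 0.00167). Cry1 ranged from 12.4 to 19.2 TPM at dusk (median 17.4), and its dawn median was 11.3 TPM. Its log2 difference of 0.57 ± 0.11 had an adjusted p of 0.0108 (limma) but fell short of 1.5-fold. Over the 8 time points Cry1 was highest at 16:30, with 18.7 scaled TPM, and lowest at 4:30, with 5.43, so the paired windows missed both extremes.

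The other repressors divided. Nr1d2, a REV-ERB receptor that represses Arntl, lay between 36.7 and 60.8 TPM at dusk (median 54.1) and between 14 and 20.8 TPM at dawn (median 15.8), a log2 difference of 1.60 ± 0.12 (limma adjusted p = 1.83e-05). Its relative Nr1d1 ranged from 19.4 to 66.6 TPM at dusk and from 29 to 44.6 TPM at dawn, with a log2 difference of 0.09 ± 0.25 (limma adjusted p = 0.859). Over 24 h Nr1d1 peaked at 7:30 with 125 scaled TPM and was lowest at 16:30 with 7.02, so its swing fell between the windows. Ciart, which blocks the activator complex, had a log2 difference of 0.89 ± 0.33 and was not called (limma adjusted p = 0.182). Bhlhe40 and Bhlhe41, which compete for E-boxes, had 0.51 and 0.61 and were not called either. Of the 10 repressors tested, 5 were called and all were higher at dusk, beside 0.775% of all genes, and the count without 1:30 replicate 2 was 5 as well. The median log2 difference of the list was 0.77, against 0.02 for all genes tested.

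Among the output factors, the PAR bZIP activators were higher at dusk. Tef lay between 171 and 220 TPM at dusk (median 210) and between 47.2 and 80.6 TPM at dawn (median 71.3), a log2 difference of 1.59 ± 0.084 (limma adjusted p = 3.96e-07). Hlf ranged from 11.6 to 17.4 TPM at dusk (median 15.5) and from 3.88 to 9.23 TPM at dawn (median 6.7), a log2 difference of 1.20 ± 0.15 (limma adjusted p = 0.000852). Dbp spread most, from 29.7 to 188 TPM at dusk (median 86.8) against 15.8 to 29.9 TPM at dawn (median 25.4), and the windows overlapped. Its log2 difference was 1.80 ± 0.37 (limma adjusted p = 0.0196), and without 10:30 replicate 1 the value was 1.79 with an adjusted p of 0.0501. The repressor of the same DNA elements, Nfil3, ranged from 2.43 to 8.12 TPM at dusk and from 5.42 to 9.61 TPM at dawn. Its log2 difference was -0.76 ± 0.20 (limma adjusted p = 0.0538), and without 1:30 replicate 2 it was called at -0.81 (limma adjusted p = 0.0393). Rora, an activator of Arntl, had a log2 difference of 0.33 and was not called. None of the 9 tested kinases, ligases and other modifiers of clock proteins was called. Usp2, a deubiquitinase that acts on clock proteins, had the largest difference of these at 0.67 ± 0.21 (limma adjusted p = 0.112) and was called without 1:30 replicate 2 (0.82, limma adjusted p = 0.0152).

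**Figure D2:**
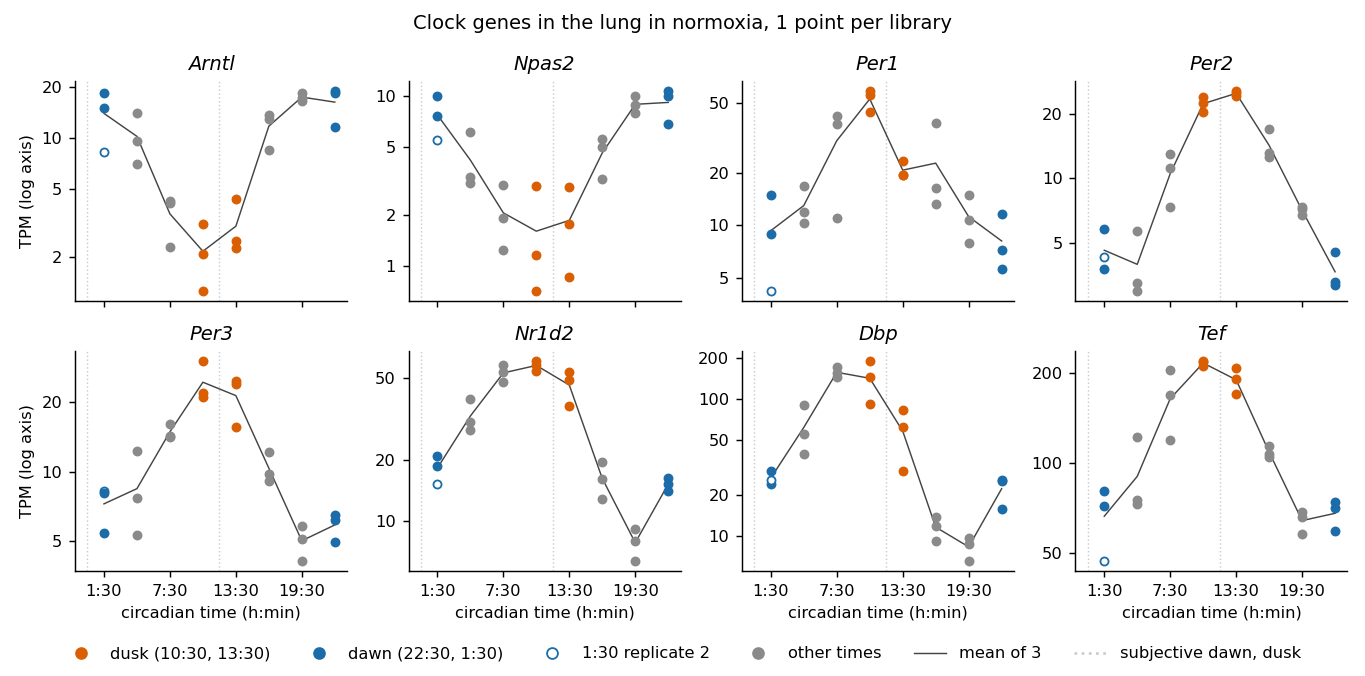
Level of clock genes in the normoxic lung over the 8 time points, as TPM on a log axis against circadian time. Points are single libraries (dusk orange, dawn blue, 1:30 replicate 2 open, other times grey), lines join the means of 3, and dotted lines mark subjective dawn and dusk: Arntl and Npas2 are low at dusk, while Per1, Per2, Per3, Nr1d2, Dbp and Tef are high.

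Promoter sequences of called genes are shown because clock factors act through short elements near the start of the gene. The sequences are from RefSeq, build GRCm38.p6, and cover the 250 bases before a transcript start, 5′ to 3′ on the strand of the gene, with the matched element in capitals. Klf15, Leo1 and Slc26a9 were chosen for display after their values were seen. The E-box CACGTG, which the ARNTL complexes bind, is shown for 4 dusk genes. The Per1 window (chr11:69098699-69098948, plus strand) lies in the annotated Per1 gene and overlaps an exon of another Per1 transcript. The Tef window (chr15:81802423-81802672, plus strand) overlaps exons of Tef and of Gm17597, which runs on the other strand. The Klf15 window (chr6:90462326-90462575, plus strand) overlaps no annotated gene. The Fkbp5 window (chr17:28486150-28486399, minus strand) lies within the Fkbp5 gene but in no exon.
Per1: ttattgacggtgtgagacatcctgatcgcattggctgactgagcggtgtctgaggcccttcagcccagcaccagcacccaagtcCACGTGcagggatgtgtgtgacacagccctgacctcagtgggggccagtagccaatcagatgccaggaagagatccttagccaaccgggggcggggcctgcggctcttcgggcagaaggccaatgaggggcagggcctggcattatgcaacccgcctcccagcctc
Tef: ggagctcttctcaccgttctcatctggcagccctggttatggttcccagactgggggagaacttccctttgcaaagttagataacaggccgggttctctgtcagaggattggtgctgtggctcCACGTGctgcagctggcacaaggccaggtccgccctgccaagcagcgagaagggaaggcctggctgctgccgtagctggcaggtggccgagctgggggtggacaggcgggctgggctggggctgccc
Klf15: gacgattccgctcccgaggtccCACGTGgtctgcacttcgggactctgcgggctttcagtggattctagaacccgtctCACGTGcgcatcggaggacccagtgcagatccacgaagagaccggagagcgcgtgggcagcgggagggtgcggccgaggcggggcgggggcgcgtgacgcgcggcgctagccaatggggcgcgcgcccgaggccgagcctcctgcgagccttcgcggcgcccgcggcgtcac
Fkbp5: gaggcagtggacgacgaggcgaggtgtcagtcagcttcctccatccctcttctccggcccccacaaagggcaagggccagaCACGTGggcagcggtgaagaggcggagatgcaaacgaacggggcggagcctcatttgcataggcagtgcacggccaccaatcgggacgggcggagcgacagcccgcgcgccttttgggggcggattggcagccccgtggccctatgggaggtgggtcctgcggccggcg
The element starts 166 bases before the start site in Per1, 127 in Tef and 169 in Fkbp5, and Klf15 holds 2 matches, at 228 and 172.

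The D-box TTATGTAA is read by DBP, TEF and HLF, and by NFIL3. The Per3 window (chr4:151044666-151044915, minus strand, inside the Camta1 gene but in no exon) holds 2 copies, at 205 and 158 bases before the start site. The ROR and REV-ERB site TAGGTCA is shown for 3 dawn genes. Leo1 encodes a subunit of the PAF1 transcription complex (chr9:75441274-75441523, plus strand). Bank1 encodes a B-cell scaffold protein (chr3:136326067-136326316, minus strand). Slc26a9 encodes an epithelial chloride channel (chr1:131743772-131744021, plus strand, match on the opposite strand). These 3 windows overlap no annotated gene.
Per3: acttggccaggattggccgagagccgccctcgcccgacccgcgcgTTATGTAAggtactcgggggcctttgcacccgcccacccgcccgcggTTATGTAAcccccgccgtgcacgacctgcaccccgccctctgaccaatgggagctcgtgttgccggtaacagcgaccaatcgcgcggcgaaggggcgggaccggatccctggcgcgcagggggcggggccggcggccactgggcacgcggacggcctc
Leo1: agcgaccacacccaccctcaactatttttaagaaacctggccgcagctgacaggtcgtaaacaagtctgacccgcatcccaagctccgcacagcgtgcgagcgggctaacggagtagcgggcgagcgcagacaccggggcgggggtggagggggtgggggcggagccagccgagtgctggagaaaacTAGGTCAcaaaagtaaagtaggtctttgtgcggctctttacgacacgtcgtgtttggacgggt
Bank1: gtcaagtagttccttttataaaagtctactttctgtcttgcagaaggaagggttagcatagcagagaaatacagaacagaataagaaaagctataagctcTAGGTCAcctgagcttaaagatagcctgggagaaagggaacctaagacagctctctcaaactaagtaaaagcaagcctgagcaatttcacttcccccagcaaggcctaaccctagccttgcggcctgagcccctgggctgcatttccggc
Slc26a9: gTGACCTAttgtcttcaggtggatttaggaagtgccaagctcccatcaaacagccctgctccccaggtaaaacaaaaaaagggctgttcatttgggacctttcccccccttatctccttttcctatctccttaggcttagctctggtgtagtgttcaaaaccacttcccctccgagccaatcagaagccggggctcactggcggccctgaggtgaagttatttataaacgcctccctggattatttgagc
The element starts 63 bases before the start site in Leo1, 150 in Bank1 and 249 in Slc26a9.

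Elements were counted on both strands over the 11255 promoters of tested genes, 113 promoters of dusk genes and 31 of dawn genes. A gene can have several promoters that overlap in sequence. CACGTG was in 8.21% of all promoters, in 14.2% of dusk promoters (16) and in 0 of the 31 dawn promoters. TAGGTCA was in 1.63% of all, in 1.77% of dusk promoters and in 12.9% of dawn promoters (4, those of Bank1, Leo1, Mthfd1 and Slc26a9). The D-box TTATGTAA was in 0.462%, 2.65% and 3.23%, in the same order, and its variant TTACGTAA in 0.142% of all and in none of the dusk or dawn promoters. TGGGTCA, another receptor site, was in 2.73% of all and 3.54% of dusk promoters. The heat shock element GAANNTTC was in 4.9%, 4.42% and 3.23%. The glucocorticoid receptor palindrome core ACANNNTGT was in 3.45%, 5.31% and 3.23%. The cAMP response element TGACGTCA was in 2.43% of all and 2.65% of dusk promoters. TGGGTCA and TGACGTCA were found in none of the dawn promoters. For the genes called without 1:30 replicate 2, CACGTG was in 14% of 93 dusk promoters and in 2.82% of 71 dawn promoters (2), and TAGGTCA in 2.15% and 7.04% (2 and 5). The ACANNNTGT share of dawn promoters was then 8.45% (6), above that of dusk promoters at 4.3% (4), where the order had been the other way. These shares are a description of these windows, and no test was made.

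Genes induced by glucocorticoid receptor were the next group higher at dusk. Zbtb16, a zinc finger repressor, ranged from 9.3 to 57 TPM at dusk (median 33.4) and from 1.95 to 9.97 TPM at dawn (median 4.59). Its log2 difference of 2.63 ± 0.38 (limma adjusted p = 0.00223) was the largest at dusk, although the windows overlapped by 1 library on each side. Fkbp5, a co-chaperone that dampens the receptor, lay between 15.5 and 40.2 TPM at dusk (median 26.9) and between 3.8 and 11 TPM at dawn (median 8.54), a log2 difference of 1.80 ± 0.23 (limma adjusted p = 0.00115). Tsc22d3, which encodes the anti-inflammatory protein GILZ, lay between 187 and 342 TPM at dusk (median 212) and between 56.4 and 98.3 TPM at dawn (median 83), a log2 difference of 1.53 ± 0.15 (limma adjusted p = 0.000142). These last 2 showed no overlap. Klf9 had a smaller difference of 0.60 ± 0.13 (limma adjusted p = 0.0243) and lost its call when any of 5 libraries was left out, namely 1:30 replicate 3, any of the 10:30 libraries or 22:30 replicate 2 (log2 difference 0.53 to 0.60, adjusted p 0.0462 to 0.0604). Of the 14 targets tested, 4 were called, all at dusk (background 0.775%), with a list median of 0.52 against 0.02 for all genes. The count was 4 and the median 0.45 without 1:30 replicate 2. Klf15, a glucocorticoid target outside the list and named after its value was seen, lay between 28 and 43.8 TPM at dusk and between 13.3 and 21.3 TPM at dawn (log2 difference 0.90 ± 0.10, limma adjusted p = 0.000435).

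**Figure D3:**
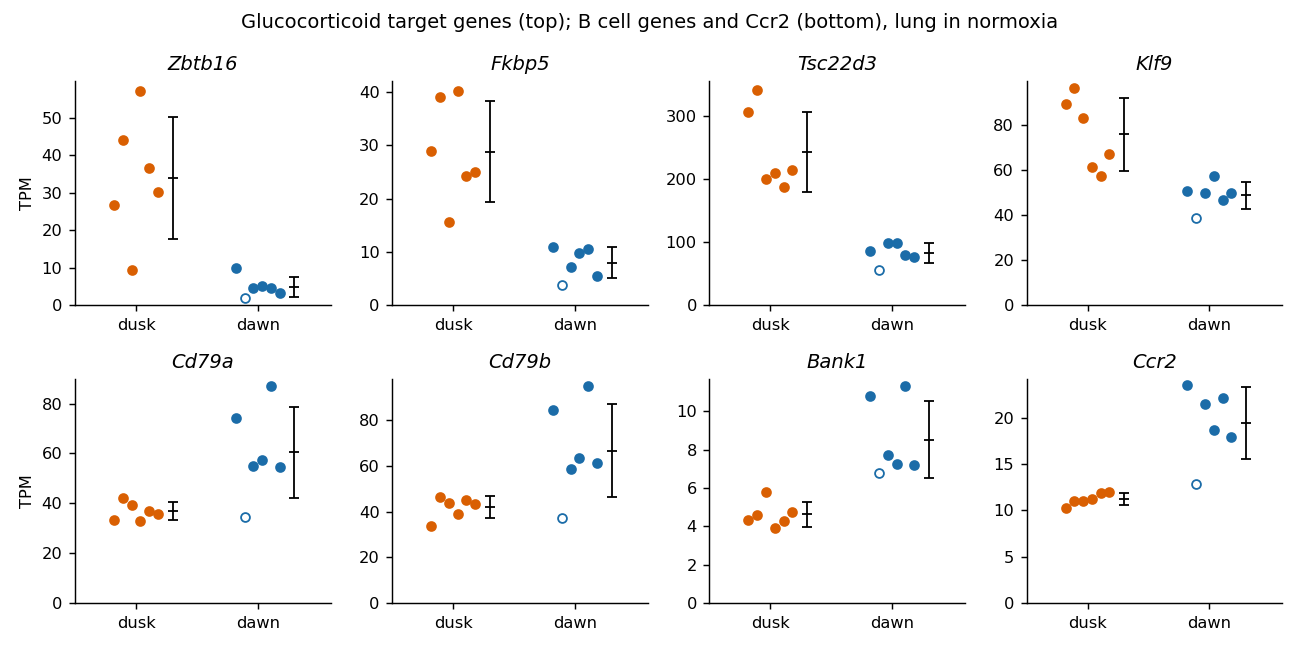
TPM per library (linear axis from 0) in the dusk and dawn windows of the normoxic lung, for glucocorticoid target genes (top) and for B cell genes and Ccr2 (bottom). Points are libraries, the open circle is 1:30 replicate 2, and bars give the mean ± SD of 6: Fkbp5 and Tsc22d3 separate fully with dusk above dawn, and Bank1 and Ccr2 with dawn above dusk.

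Chaperones whose synthesis follows temperature were tested too, because body temperature has a daily rhythm. None of the 18 heat shock genes was called. The near-identical pair Hspa1a and Hspa1b, whose reads cannot be divided with certainty, had log2 differences of 1.62 ± 0.51 and 1.80 ± 0.60 with adjusted p of 0.112 and 0.133 (limma). The list median was 0.19, and 17 of 18 values were above 0. None of the 14 cold-induced RNA-binding and splicing genes was called, and their median was 0.08. Over the 8 time points the means of Rbm3 (cold list) ran from 134 to 271 scaled TPM. Those of Hspa8 (heat shock list) ran from 548 to 1271, and both genes had their highest and lowest means outside the windows. Srsf5 (cold list, 194 to 322) and Hsp90ab1 (heat shock list, 578 to 1048) were lowest in the dusk window and highest outside both windows. The windows can therefore miss a daily swing or average over it, and a rhythm over the 8 time points was not tested. Of 16 genes of the endoplasmic reticulum stress response, 1 was called (background 0.775%), Herpud1, which takes part in the disposal of misfolded proteins. It ranged from 138 to 194 TPM at dusk and from 78.8 to 108 TPM at dawn (log2 difference 0.67 ± 0.088, limma adjusted p = 0.00117).

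Several further dusk genes were chosen by size of the difference among those that separated the windows. Fam107a, an actin-associated protein that is also a glucocorticoid target, lay between 14.9 and 30.8 TPM at dusk (median 21.2) and between 2.14 and 8.57 TPM at dawn (median 5.82), a log2 difference of 1.91 ± 0.25 (limma adjusted p = 0.00115). Tspan4, a tetraspanin of cell membranes, lay between 97.7 and 141 TPM at dusk and between 29.8 and 55.7 TPM at dawn, a log2 difference of 1.5 ± 0.10 (limma adjusted p = 7.03e-06). Rgcc, a cell cycle regulator expressed in endothelium, lay between 264 and 458 TPM at dusk and between 72.6 and 172 TPM at dawn, a log2 difference of 1.46 ± 0.18 (limma adjusted p = 0.000787). Map3k6, a stress kinase, and Cys1, a protein of the primary cilium, had 1.48 ± 0.19 and 1.44 ± 0.15. The cell cycle list had 1 called member of 10 (background 0.775%), Wee1, the kinase that holds cells before mitosis and a known clock target. Wee1 lay between 12.1 and 16.2 TPM at dusk (median 14.1) and between 4.06 and 5.93 TPM at dawn (median 5.02), with a log2 difference of 1.40 ± 0.079 (limma adjusted p = 7.01e-07). None of the 8 proliferation genes tested was called.

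Among metabolic genes, the flavin monooxygenase Fmo2, which oxidizes drugs and other foreign compounds, was the most abundant called dusk gene by TPM. It ranged from 465 to 621 TPM at dusk (median 528) and from 152 to 343 TPM at dawn (median 323), a log2 difference of 0.98 ± 0.13 (limma adjusted p = 0.00116) without overlap. Cyp2b10, a cytochrome P450, ranged from 183 to 263 TPM at dusk and from 81.6 to 162 TPM at dawn (log2 difference 0.69 ± 0.11, limma adjusted p = 0.00415). These were the 2 called of 12 genes of xenobiotic metabolism (background 0.775%). Both kept their calls without 1:30 replicate 2, the lowest dawn library of each (0.86 and 0.60), where 3 of the 12 were called (background 0.668%). Of 13 lipogenic genes, only Lpin2, a phosphatidate phosphatase, was called, at 0.70 ± 0.14 (limma adjusted p = 0.0162, background 0.775%). Without 1:30 replicate 2 its difference of 0.58 fell below 1.5-fold, and 1 other gene of the list was called higher at dawn (background 0.677%). None of the 16 cholesterol, 13 NRF2 target, 13 fatty acid oxidation or 7 NAD genes tested was called. The list medians were -0.10, 0.05, -0.08 and 0.02. None of the 17 oxygen-sensing genes was called, with a median of 0.10.

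Dawn genes were led by Spon2, which encodes a secreted matrix protein that takes part in innate immune recognition. Spon2 lay between 1.42 and 2.56 TPM at dusk (median 1.57) and between 13 and 19.4 TPM at dawn (median 15.2), without overlap. The log2 difference of -2.86 ± 0.12 (limma adjusted p = 5.63e-08) was the largest of all genes tested and unchanged to 2 decimals without 1:30 replicate 2. Over the 8 time points Spon2 was highest at 19:30 with 17.1 scaled TPM and lowest at 10:30 with 1.51, a course close to that of Arntl (17.8 at 19:30 and 2.15 at 10:30). Cxcl15 (lungkine), a neutrophil chemokine made by lung epithelium, ranged from 322 to 598 TPM at dusk (median 364) and from 650 to 1017 TPM at dawn (median 901), a log2 difference of -1.15 ± 0.15 (limma adjusted p = 0.000959). It was the 1 called member (background 0.347%) of the 12 surfactant and alveolar type 2 genes, whose median was -0.02.

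Further dawn genes with separated windows had smaller differences than Spon2. Nxph3, a secreted neurexophilin, lay between 2.76 and 3.89 TPM at dusk and between 6.32 and 9.1 TPM at dawn (log2 difference -1.17 ± 0.10, limma adjusted p = 5.22e-05). Glipr2, a Golgi-associated protein, lay between 7.33 and 10.1 TPM at dusk and between 12 and 22.8 TPM at dawn (log2 difference -1.13 ± 0.094, limma adjusted p = 3.32e-05). Hdc, the enzyme that makes histamine, lay between 29.5 and 36.3 TPM at dusk (median 31.5) and between 51.6 and 69.2 TPM at dawn (median 55.7), a log2 difference of -0.85 ± 0.13 (limma adjusted p = 0.00394). Ank3, a membrane skeleton protein, had -0.84, Muc20, a mucin, -0.78 and Rasl11a, a small GTPase, -0.74. Of the abundant dawn genes, Gyg, which primes glycogen synthesis, had -0.68 ± 0.11 (limma adjusted p = 0.00394). Mthfd1, an enzyme of folate metabolism, had -0.67 ± 0.14 (limma adjusted p = 0.0240). Its call was lost in 7 of the 12 fits that left out 1 library each, those without 1:30 replicate 1 or 3, 10:30 replicate 1, 13:30 replicate 2 or 3, or 22:30 replicate 2 or 3 (log2 difference -0.66 to -0.63, adjusted p 0.0511 to 0.0606). Its difference was -0.82 without 1:30 replicate 2.

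Leukocyte genes gave several of the smaller dawn differences. Ccr2, the receptor that brings classical monocytes from marrow to blood and tissue, lay between 10.3 and 12.1 TPM at dusk (median 11.1) and between 12.8 and 23.6 TPM at dawn (median 20.1). The log2 difference was -0.75 ± 0.080 (limma adjusted p = 0.000374) without overlap. Ccr2 was the 1 called of 12 genes of leukocyte adhesion and homing (background 0.347%). Bank1, a scaffold in B-cell receptor signaling, lay between 3.92 and 5.8 TPM at dusk and between 6.78 and 11.3 TPM at dawn (log2 difference -0.81 ± 0.12, limma adjusted p = 0.00322). Cx3cr1, the fractalkine receptor of patrolling monocytes, was also called (-0.78 ± 0.20, limma adjusted p = 0.0482) and was named after its value was seen.

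Of the 7 B-cell markers tested, 3 were called, all higher at dawn (background 0.347%), with a list median of -0.67, and 5 were called without 1:30 replicate 2 (background 0.677%). Cd79a, a signaling chain of the B-cell receptor, ranged from 32.8 to 42.2 TPM at dusk and from 34.4 to 87.2 TPM at dawn (-0.67 ± 0.14, limma adjusted p = 0.0187). Its partner Cd79b ranged from 33.7 to 46.5 TPM at dusk and from 37.2 to 95.2 TPM at dawn (-0.62 ± 0.15, limma adjusted p = 0.0345). Both overlapped between windows. Cd79a lost its call without 10:30 replicate 1 (-0.64, adjusted p 0.0513) or 22:30 replicate 2 (-0.57, adjusted p 0.0308). Cd79b lost it in 10 of the 12 fits that left out 1 library and kept it only without 1:30 replicate 2 or 10:30 replicate 3 (log2 difference -0.66 to -0.53 and adjusted p 0.0516 to 0.0814 where lost). Over these fits 1 to 5 B-cell markers were called. The immunoglobulin light chain genes Iglc2 and Iglc3, near-identical copies whose reads may be shared, had -0.82 and -0.71 and were named after their values were seen.

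The summed TPM of each marker list includes listed genes below the minimum level. That of the B-cell list ran from 201 to 325 at dusk (median 266) and from 272 to 852 at dawn (median 384). A 2-sided exact permutation test gave p = 0.0173, or 0.0924 adjusted over the 16 library values compared. With 924 splits of 6 against 6 the smallest p is 0.00216. Erythroid markers went the other way, from 64880 to 96933 TPM at dusk and from 37231 to 69258 TPM at dawn (exact permutation p = 0.0108, adjusted 0.0866), and none of the 5 was called (median log2 difference 0.53). Ciliated-cell markers summed to 711 to 842 TPM at dusk and to 815 to 1176 TPM at dawn (exact permutation p = 0.00433, adjusted 0.0693), again with no member of 9 called. Without 1:30 replicate 2 the 3 sums had adjusted p of 0.0693, 0.0866 and 0.0693. With scaled instead of deposited TPM the exact permutation p of the B-cell, erythroid and ciliated sums were 0.00649, 0.0152 and 0.134 (adjusted 0.104, 0.121 and 0.579). No marker sum thus had an adjusted p under 0.05, and neither did the number of genes detected (0.489). The part of blood content or tissue sampling in the B-cell and monocyte values was not tested. No marker of club, alveolar type 1, endothelial, smooth muscle, macrophage, neutrophil, T and NK, cardiac or skeletal muscle, fat or thymus cells was called. Without 1:30 replicate 2, 2 of the 5 neutrophil markers were called, both higher at dawn (background 0.677%).

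With all 12 libraries the remaining lists held few calls, all higher at dusk, beside 0.775% of all genes for that direction. Of 12 chemokine genes none was called, and of 10 interferon-stimulated genes only Ifit3 was (0.63 ± 0.13, limma adjusted p = 0.0220). That call was lost without 1:30 replicate 2 (0.50, adjusted p 0.00222), 10:30 replicate 1 (0.62, adjusted p 0.0561), 10:30 replicate 3 (0.58, adjusted p 0.0413) or 13:30 replicate 2 (0.63, adjusted p 0.0512). Of 16 immediate early genes Klf4, a shear-responsive endothelial factor, was called at 0.67 ± 0.12 (limma adjusted p = 0.0100). Of 18 matrix genes Timp3, an inhibitor of metalloproteinases, was called at 0.72 ± 0.16 (limma adjusted p = 0.0251). Its call was lost without 10:30 replicate 1 or 2, 13:30 replicate 1 or 2, or 22:30 replicate 3 (log2 difference 0.67 to 0.72, adjusted p 0.0579 to 0.0634). In the fit without 1:30 replicate 2, 1 of the 18 matrix genes was also called higher at dawn (background 0.677%). None of 15 genes of vascular and airway tone and none of 8 ion and water transport genes was called, with list medians of 0.27 and 0.17.

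The full time course placed the called genes in the day. The windows chose these genes, so only the times outside them are independent. Of the 87 dusk genes, 53 had their highest mean at 10:30, 31 at 13:30, 2 at 7:30 and 1 at 16:30. At 7:30 and 16:30, which flank the dusk window and entered no test, their median log2 level was 0.10 above the 24-h mean at each time. At 4:30 and 19:30 it was -0.32 and -0.24. The lowest mean of these genes was at 1:30 in 50 and at 22:30 in 14, but without 1:30 replicate 2 the minima spread, with 28 at 1:30, 24 at 4:30, 23 at 22:30 and 10 at 19:30. Of the 39 dawn genes, 18 were highest at 4:30, 8 at 19:30, 8 at 22:30 and 5 at 1:30. Their median was 0.32 at 4:30 and 0.18 at 19:30, against -0.03 at 7:30 and -0.20 at 16:30. Without 1:30 replicate 2, 14 of the 39 were highest at 4:30 and 11 at 1:30, and both times had a median of 0.3. Of the 76 dawn genes called without that library, 35 were highest at 1:30 and 18 at 4:30, so the most frequent time of the maximum depended on that library. Of the 87 dusk genes, 53 were highest at 10:30 with and without it.

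The same windows were compared in 12 other lungs, those of IH mice, to see whether the differences recurred. Over all genes, 48 were called after IH (0.428%), 34 higher at dusk (0.303%) and 14 higher at dawn (0.125%). Of the 87 dusk genes of normoxia, 87 had the same sign after IH, 77 reached an unadjusted p under 0.05 and 30 were called. Their median log2 difference was 0.74 in normoxia and 0.76 after IH. Of the 39 dawn genes, 39 had the same sign, 26 reached p under 0.05 and 8 were called, with medians of -0.74 and -0.69. Of the genes called in normoxia without 1:30 replicate 2, 75 of 75 dusk genes had the same sign after IH, 71 with an unadjusted p under 0.05 and 29 called, as did 75 of 76 dawn genes, 46 with an unadjusted p under 0.05 and 10 called. The shares of all genes tested with a given sign, or with an unadjusted p under 0.05, after IH are not given here. The counts by sign and by unadjusted p therefore have no background beside them. The 38 genes called in both with all libraries are 30.2% of the normoxia calls and 79.2% of the IH calls. The IH libraries had 23688 to 28257 genes above 0. With TPM as deposited the median difference of all genes after IH was -0.14, against 0.03 after scaling.

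No difference between normoxia and IH passed the test. The interaction of window and treatment (limma) was called in 0 genes (0.0%), with a lowest adjusted p of 1.0, and 70 genes had an unadjusted p under 0.05. These 70 are a smaller share of the 11226 genes tested than the 0.05 expected with no difference in any gene. The 0 calls therefore do not show that the differences were equal. Dbp had a log2 difference of 1.80 ± 0.37 in normoxia and 3.56 ± 0.31 after IH. Nr1d2 had 1.60 ± 0.12 and 2.53 ± 0.25, and Nr1d1 had 0.09 ± 0.25 and 1.37 ± 0.35. Npas2 had -2.10 ± 0.25 and -2.98 ± 0.26. Per1, Per2 and Fkbp5 were closer, with 1.97 and 1.94, 2.40 and 2.42, and 1.80 and 1.58. Dbp, Nr1d2, Nr1d1 and Npas2 were among the 70 genes with an unadjusted p under 0.05, and none held after adjustment. Cd79a and Cd79b were not called after IH (-0.56 and -0.53), and Ccr2 had -0.52 ± 0.19 (limma adjusted p = 0.518).

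**Figure D4:**
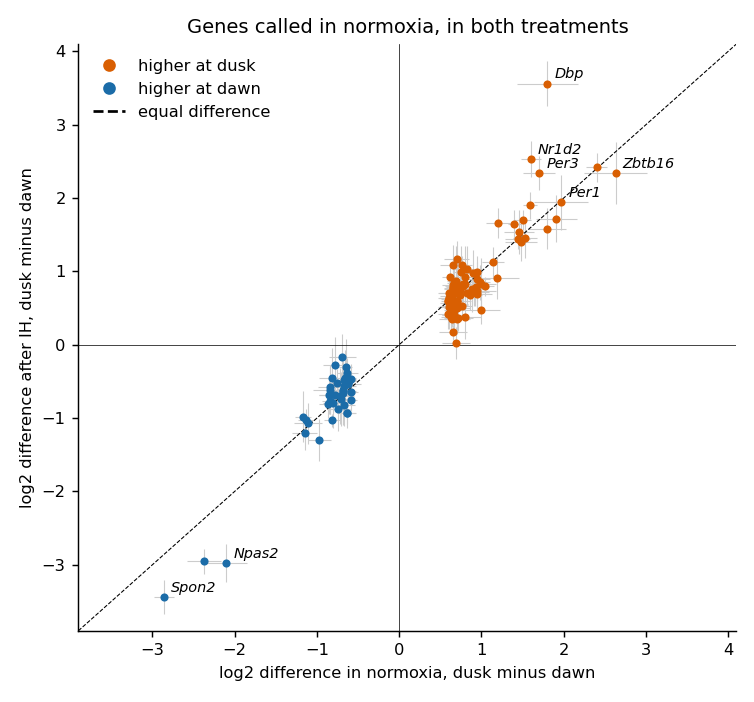
Log2 dusk minus dawn of the 126 genes called in the normoxic lung, with normoxia on the horizontal axis and the 12 IH libraries on the vertical axis. Points are genes, coloured by direction in normoxia, with bars of 1 SE, and the dashed line marks equal differences: all 87 dusk genes lie above 0 and all 39 dawn genes below 0 on both axes.

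The lung was set against liver and kidney of the normoxic mice over the genes expressed in both tissues of a pair. The libraries of the tissues were treated as independent, and both comparisons use the same lung libraries. The paper describes several organs collected from the mice, with n = 3 per time point and condition. Libraries of different tissues may therefore share mice throughout. The labels do not pair them, and this dependence was not modelled. Each interaction was fitted on the 24 libraries of a pair scaled together, whereas the values of a single tissue come from its 12 libraries scaled alone. With the pseudocount of 0.5, an interaction can therefore differ from the difference of the printed values, most for genes of low TPM in 1 window. In liver 240 of 6561 genes were called between the windows (3.66%), and in kidney 54 of 8245 (0.655%). The interaction of window and tissue was called in 168 genes against liver (2.56%) and in 49 against kidney (0.594%). Without the lung library of 1:30 replicate 2 the numbers were 170 and 61. Of the lung calls, 47 could be tested against liver and 13 of these differed, and 63 could be tested against kidney and 16 of these differed. These genes were chosen for their difference in the same lung libraries, so the counts are not independent of that choice.

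Several clock genes differed less between the windows in lung than in liver. Dbp had a log2 difference of 1.80 ± 0.37 in lung and 5.14 ± 0.32 in liver, where it ran from 33.8 to 138 TPM at dusk and from 1.01 to 2 TPM at dawn (interaction -3.52 ± 0.52, limma adjusted p = 0.000192). Ciart had 0.89 in lung and 3.93 in liver (interaction -3.39 ± 0.41, limma adjusted p = 9e-06), and Usp2 had 0.67 and 3.12 (interaction -2.58 ± 0.50, limma adjusted p = 0.00263). Cry1 differed in sign, with 0.57 ± 0.11 in lung and -0.96 ± 0.27 in liver (interaction 1.53 ± 0.31, limma adjusted p = 0.00351). Arntl had -2.37 in lung, -2.85 in liver and -2.50 in kidney, and neither interaction was called (limma adjusted p = 0.233 and 0.773). Per2 had 2.40 in lung and 0.91 in kidney (interaction 1.40 ± 0.24, limma adjusted p = 0.00266). Against liver its interaction of 0.98 ± 0.38 was not called (limma adjusted p = 0.188).

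Metabolic and hormonal genes also separated the tissues. Alas1, the first enzyme of heme synthesis, had 0.50 ± 0.12 in lung and 2.78 ± 0.39 in liver (interaction -2.29 ± 0.43, limma adjusted p = 0.00187). Lpin1, a phosphatidate phosphatase, had 0.30 ± 0.17 in lung and 3.20 ± 0.34 in liver (interaction -2.97 ± 0.40, limma adjusted p = 6.29e-05). Clpx, a mitochondrial unfoldase, had -0.03 ± 0.052 in lung and -2.31 ± 0.12 in liver (interaction 2.27 ± 0.13, limma adjusted p = 1.43e-11). Tubb2a (0.04 in lung, -2.74 in liver) and the choline kinase Chka (0.24 and -2.05) had interactions of 2.79 and 2.29. Tsc22d3 was higher at dusk in lung but had 0.22 ± 0.29 in liver (interaction 1.29 ± 0.34, limma adjusted p = 0.0328). That call was lost without replicate 1 (1.0, limma adjusted p = 0.313) and without replicate 2 (1.16, limma adjusted p = 0.252). It was also lost without the lung library of 1:30 replicate 2 (1.24, adjusted p 0.0519) and with TPM as deposited (1.31, adjusted p 0.0503). For Fkbp5 the interaction with liver was 0.13 ± 0.39 (limma adjusted p = 0.973).

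Against kidney, the lung differed most in Fam107a. It ran from 26.3 to 32.6 TPM at dusk and from 19.2 to 41 TPM at dawn in kidney, a log2 difference of -0.13 ± 0.074, against 1.91 ± 0.25 in lung (interaction 1.98 ± 0.26, limma adjusted p = 0.000297). Ppard, a nuclear receptor for fatty acids, had 0.16 ± 0.20 in lung, -1.76 ± 0.23 in kidney and -1.63 ± 0.23 in liver, with interactions of 1.91 and 1.83. Rhobtb1 had 0.63 in lung and -1.04 in kidney (interaction 1.64). Of the dawn genes of the lung, Ank3 and Gyg had -0.84 and -0.68 in lung and -0.12 and 0.06 in kidney (interactions -0.74 and -0.77, limma adjusted p = 0.0223 and 0.00461). Cys1 was higher at dusk in lung and had 0.35 ± 0.12 in kidney (interaction 1.05 ± 0.20, limma adjusted p = 0.00647).

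**Figure D5:**
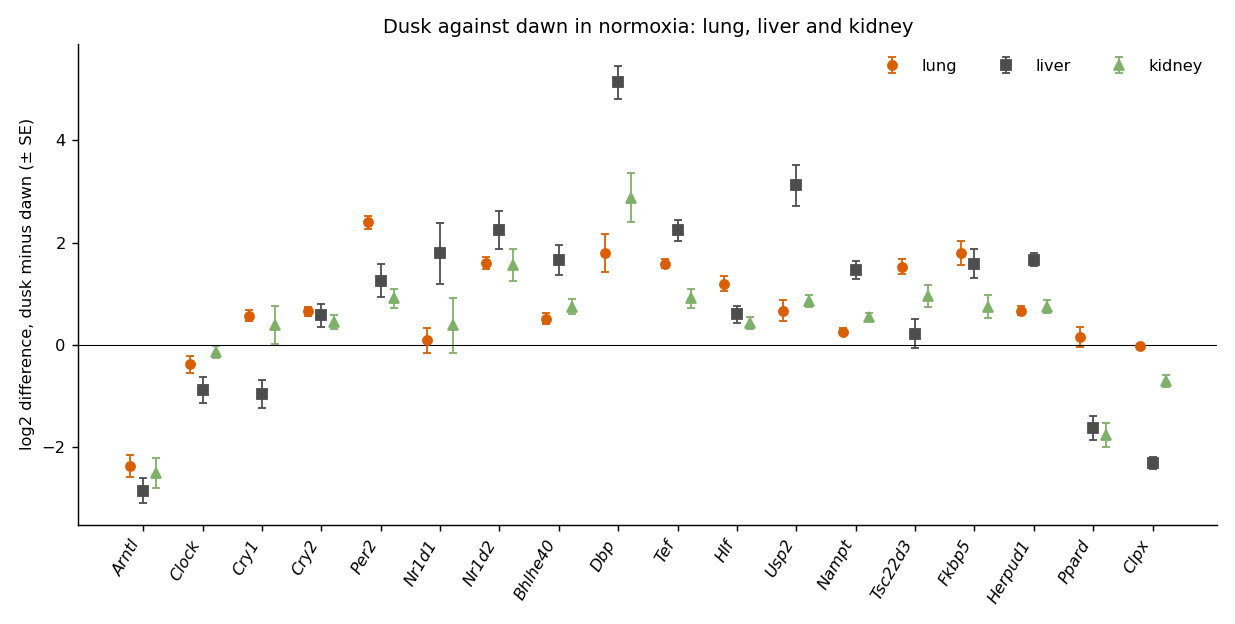
Log2 dusk minus dawn in the normoxic lung beside liver and kidney for named genes, as fitted values with error bars of 1 SE (12 libraries per tissue). Dbp and Usp2 have larger differences in liver (5.14 and 3.12) than in lung (1.80 and 0.67), Cry1 has opposite signs in these tissues, and Per2 is 2.40 in lung and 0.91 in kidney.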

How the data were processed

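Whole lungs of male C57BL/6J mice, 1 library per mouse, were sequenced as poly(A) RNA on a NovaSeq after directional library preparation. The authors quantified reads with kallisto (version not given in the sources used here) against the Ensembl mouse transcriptome and deposited TPM, transcript levels relative to library total, summed per gene; the labels name build mm10. No counts were used, and the study's methods give a depth for the series but not for each library, so no interval from counts can be given and no count test was run. Totals ran from 995583 to 996656 TPM. kallisto shares reads among similar transcripts, so near-identical copies are uncertain.

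Each library was scaled to the gene-wise geometric mean by its median ratio, and log2(scaled TPM + 0.5) of genes that averaged 5 TPM or more was fitted with limma 3.58.1 in R 4.3.3 (lmFit, eBayes with trend), with Benjamini-Hochberg adjustment over all genes tested. A gene was called at an adjusted p of 0.05 or less and 1.5-fold. Interactions were fitted over 24 libraries. Summed marker levels were compared by 2-sided exact permutation tests. The lung fit and the interaction with treatment were run on simulated data with independent noise per gene and without the scaling step. That run therefore did not test the scaling, or noise shared among genes. No 2 libraries were identical, and 0 table columns lacked a sample. The labels give no pairing of the mice by replicate number, so the main fits used no block.

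Members and gene lists were chosen with earlier results of these data known. Named genes were all clock-list members; up to 4 called members of each other list; the 12 largest differences in each direction among called genes with separated windows, without predicted genes; the 3 called genes of highest TPM in each direction; and the 5 largest interactions in each direction. Some genes that this rule takes are not reported here. Any other gene is named as seen afterwards. Alternatives were other pseudocounts, minimum levels and scalings, a replicate block, time as a factor, genes detected as a term, single pairs of time points, and leaving out replicates or single libraries. Promoters of 250 bases came from RefSeq (GRCm38.p6) and annotation from GENCODE. Figures were drawn with matplotlib 3.10.9.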

Additional observations from a re-analysis of the deposited data

Results flagged for a closer look

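Among 280 groups of 6 libraries looked at, 27 held a library whose gap to its nearest neighbour as a share of the range exceeded Dixon's 95% critical value, where chance gives about 1 in 20. Of these 27, 15 were the dawn library of 1:30 replicate 2. In it Scgb1a1 (share 0.627), Myl7 (0.661), Myl4 (0.670) and the summed club-cell markers (0.632) were highest. The lowest values there were those of Herpud1 (0.631), Ifit3 (0.664), Ager (0.653), Hopx (0.778), Cldn5 (0.753), Lyz2 (0.713), Glipr2 (0.702) and Mthfd1 (0.718), and of the summed markers of alveolar type 1 cells (0.764), endothelium (0.679) and macrophages (0.680). Called genes of this group are Herpud1, Ifit3, Glipr2 and Mthfd1.

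In 10:30 replicate 3, Csnk1e was lowest (0.649), while Ccl21a (0.829), Lyz2 (0.672), Aspa (0.736) and the summed macrophage markers (0.636) were highest. In 10:30 replicate 1 the muscle genes Ckm (0.667) and Tnnt3 (0.832) and the summed skeletal muscle markers (0.862) were highest, and in 22:30 replicate 2 the skeletal muscle sum was highest too (0.801). Single cases were Spon2 in 13:30 replicate 1 (0.707), Akap7 in 1:30 replicate 1 (0.741) and Ndrg1 in 10:30 replicate 2 (0.628). The part of tissue sampling in these values was not tested.

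Differences between lung and another tissue that passed the interaction test (limma) are given as lung minus the other tissue, on the log2 scale. Of the 37 differences listed, 22 were also called with TPM as deposited, 20, 18 and 17 without replicate 1, 2 or 3, and 35 without 1:30 replicate 2, and none changed sign. Against liver, the dusk minus dawn difference of the lung was lower for Dbp (-3.52), Ciart (-3.39), Lpin1 (-2.97), Usp2 (-2.58), Alas1 (-2.29), Nampt (-1.22), Bhlhe40 (-1.18), Herpud1 (-1.02) and Akap7 (-0.74). It was higher for Tubb2a (2.79), Chka (2.29), Clpx (2.27), Rnf125 (2.21), Lgalsl (2.16), Ppard (1.83), Ndrg1 (1.66), Cry1 (1.53), Cyp2b10 (1.47), Tsc22d3 (1.29) and Tspan4 (0.70). Against kidney it was higher for Fam107a (1.98), Ppard (1.91), Rhobtb1 (1.64), Per2 (1.40), Ndrg1 (1.18), Cys1 (1.05), Timp3 (0.86), Lpin2 (0.70), Clpx (0.64) and Fmo2 (0.63). The call for Fmo2 was lost without 1:30 replicate 2, where the difference fell below 1.5-fold. The lung value was lower than that of kidney for Susd3 (-1.18), Akap7 (-0.80), Cpm (-0.79), Aspa (-0.79), Vnn1 (-0.78), Gyg (-0.77) and Ank3 (-0.74). Cpm, a membrane carboxypeptidase higher at dawn in lung (-0.68), lost that call without 1:30 replicate 3 (-0.66, limma adjusted p = 0.0538) or 13:30 replicate 2 (-0.65, limma adjusted p = 0.0586).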

How the results depend on the processing

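No called difference of a named gene changed sign under any alternative run, and of the 43 genes taken by the naming rule and called in the lung, 34 were called in each of the 12 fits that left out 1 library. With TPM as deposited 35 of the 43 were called, without replicate 1, 2 or 3 the numbers were 23, 31 and 28, and 22 were called for 10:30 against 22:30 and 6 for 13:30 against 1:30. The number of genes called moved more. From 126 (87 dusk, 39 dawn), it went to 75 (50 and 25) with TPM as deposited, 54 (32 and 22) for 10:30 against 22:30, 9 (7 and 2) for 13:30 against 1:30, and 397 (264 and 133) by adjusted p alone. Dawn genes rose to 75 with genes detected as a term, 68 at a minimum of 1 TPM, 72 with 75th-percentile scaling and 76 without 1:30 replicate 2. Leaving out 1 library gave 88 to 151 genes (61 to 94 dusk, 27 to 76 dawn). Leaving out a replicate number gave 39 to 82 (25 to 41 dusk, 14 to 45 dawn), with 4 libraries per window, and the lowest count was without replicate 1. Without replicate 1, 2 or 3, IH gave 20 to 21 genes (11 to 15 dusk, 5 to 10 dawn), the liver interaction 75 to 118 (170 without 1:30 replicate 2), the kidney interaction 9 to 17 (61 without 1:30 replicate 2), liver itself 78 to 226 (33 to 136 dusk, 45 to 121 dawn) and kidney itself 32 to 68 (14 to 32 dusk, 15 to 36 dawn). The IH counts were 131 (77 dusk, 54 dawn) with genes detected as a term and 20 dusk and 50 dawn genes with TPM as deposited, where the kidney interaction gave 11 and kidney itself 51 dusk and 13 dawn genes. The fit with the replicate block called 126 genes in lung (88 dusk, 38 dawn) and 64 after IH, against 48 after IH in the main fit. Across genes, deviations of same-numbered dusk and dawn lung libraries correlated at 0.583, -0.162 and 0.436 for replicates 1, 2 and 3. Those of unlike numbers ran from -0.627 to 0.43. What libraries of the same number share was not tested. The cause of the changes in these counts was not tested either. The depth of each library is not known here, so values near the minimum level carry an error that cannot be set from counts.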

Other observations

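Genes outside the lists were read from the calls after their values were seen, and no list of them was tested. The Notch ligand Dll1 (log2 difference 0.64 ± 0.14) was called at dusk, with 0.69 without 1:30 replicate 2. The receptor Notch4 (0.63 ± 0.12) and the ligand Jag2 (0.70 ± 0.16) lost their calls without that library (0.55 and 0.58). The hyaluronan receptor Lyve1 (0.99 ± 0.19), xanthine dehydrogenase Xdh (0.86 ± 0.15) and glutamine synthetase Glul (0.75 ± 0.10) were higher at dusk and kept their calls without that library (0.85, 0.72 and 0.74).

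In the dawn direction, the B-lineage genes Ighd (-0.72 ± 0.17), Mzb1 (-0.69 ± 0.16) and Blk (-0.66 ± 0.14) were called beside those of the marker list. So were Il18r1, a receptor chain for interleukin 18 (-0.82 ± 0.096), and Itgb6, an epithelial integrin chain (-0.87 ± 0.11). Without 1:30 replicate 2 these 5 had -0.85, -0.70, -0.72, -0.89 and -0.94 and stayed called.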
